A study of Rattus norvegicus with 12 samples.

Results

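Integrins, the receptors that tie cells to their matrix, and the laminins and nidogens of the basement membrane were examined in hearts of rats with and without myocardial infarction. They were found by symbol, as every row of the count table named for an integrin alpha or beta chain, a laminin alpha, beta or gamma chain or a nidogen, without the integrin-binding proteins and Itgbl1. This gave 39 of the 30560 genes in the table, with 26 integrin chains, 11 laminin chains and 2 nidogens. The rats were male Wistar rats, 7 weeks old at surgery, with 1 library from fixed, paraffin-embedded sections of the heart for each of 12 rats. The 4 Sham rats underwent thoracotomy without a coronary suture and received vehicle. The 4 MI rats underwent permanent ligation of the left anterior descending coronary artery and received vehicle, and the 4 MI + UA rats underwent the same ligation and received urolithin A (UA), a gut-derived metabolite that induces mitophagy, by daily gavage for 8 weeks. Rats with small infarcts were excluded by echocardiography, so the infarcted groups hold larger infarcts, and each section of an infarcted heart can hold scar as well as surviving muscle. Rat 66 is MI + UA by its label but stands with the vehicle-treated MI rats in the echocardiography records of the study, and it was counted as MI + UA here.

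An integrin is a dimer of an alpha and a beta chain, and the pair decides which ligand is bound. Cardiomyocytes hold on to the laminin around them mainly through the alpha 7 chain with beta 1, while beta 1 is also made by nearly every other cell. Fibroblasts and vascular cells carry further alpha chains for collagen, fibronectin and other ligands, and leukocytes carry the beta 2 family, with which they adhere to vessel walls and take up particles. Laminins are trimers of an alpha, a beta and a gamma chain that form the sheet of the basement membrane, and nidogens link this sheet to collagen IV. The lists used below place each integrin where it is best known, as cardiomyocyte (Itga7 and Itgb1), stromal (15 chains of fibroblasts, vessels and epithelia) or leukocyte and platelet (9 chains). Most of these genes are made by more than 1 cell type.

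Reads on genes numbered from 6228706 to 19031695 per library, and the 39 members together took from 0.207% to 0.298% of them, while mitochondrially encoded genes took from 50.2% to 58.6%. A single member, Itgb6, an epithelial chain with 6 counts over the 12 libraries, fell below the minimum of 10 counts in total, and the other 38 were tested. Another 3 members, Itga10, Itgae and Lama1, had under 100 counts in total and are described by their counts, while 23 members had at least 1000. Each rat gave 1 library, so p-values measure the spread between rats. Values are given in CPM, the counts of a gene scaled to the size of its library, with sizes set by the trimmed mean of M-values (TMM). Where 4 values are given in turn, they follow the rats' numbers, which are 12, 17, 32 and 38 in Sham, 36, 57, 61 and 89 in MI, and 29, 58, 64 and 66 in MI + UA. CPM is not divided by gene length, so levels were compared between rats and not between genes. Sections hold all cells of the tissue, so fewer cells of a type and less RNA per cell cannot be told apart. All 7 cardiomyocyte markers in the table were lower in MI than in Sham at an adjusted p under 0.05 by edgeR, 5 of 7 fibroblast markers and 8 of 9 macrophage and pan-leukocyte markers were higher, and 1 of 6 endothelial markers, Kdr, was lower. The part of these shifts in the values below was not tested.

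A gene was counted as passing where edgeR's quasi-likelihood test gave an adjusted p-value under 0.05 over all 18182 genes tested. Between MI and Sham 6 of the 38 members passed, or 15.8%, against 11.4% of all genes. Itga11, Itga8, Itgb1 and Itga9 rose, while 5.82% of all genes did, and Itga7 and Lamb2 fell, while 5.53% of all genes did. By class, 1 of the 2 cardiomyocyte integrins rose and the other fell, 3 of 14 stromal integrins rose, 0 of 9 leukocyte and platelet integrins passed, and 1 of 11 laminin chains fell. The rats of the groups did not overlap at 10 members, or 26.3%, against 15.7% of all genes. The median log2 fold change was 0.17 over the members and 0.026 over all genes tested. These shares were not tested against each other, and the members are described gene by gene.

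**Figure D1:**
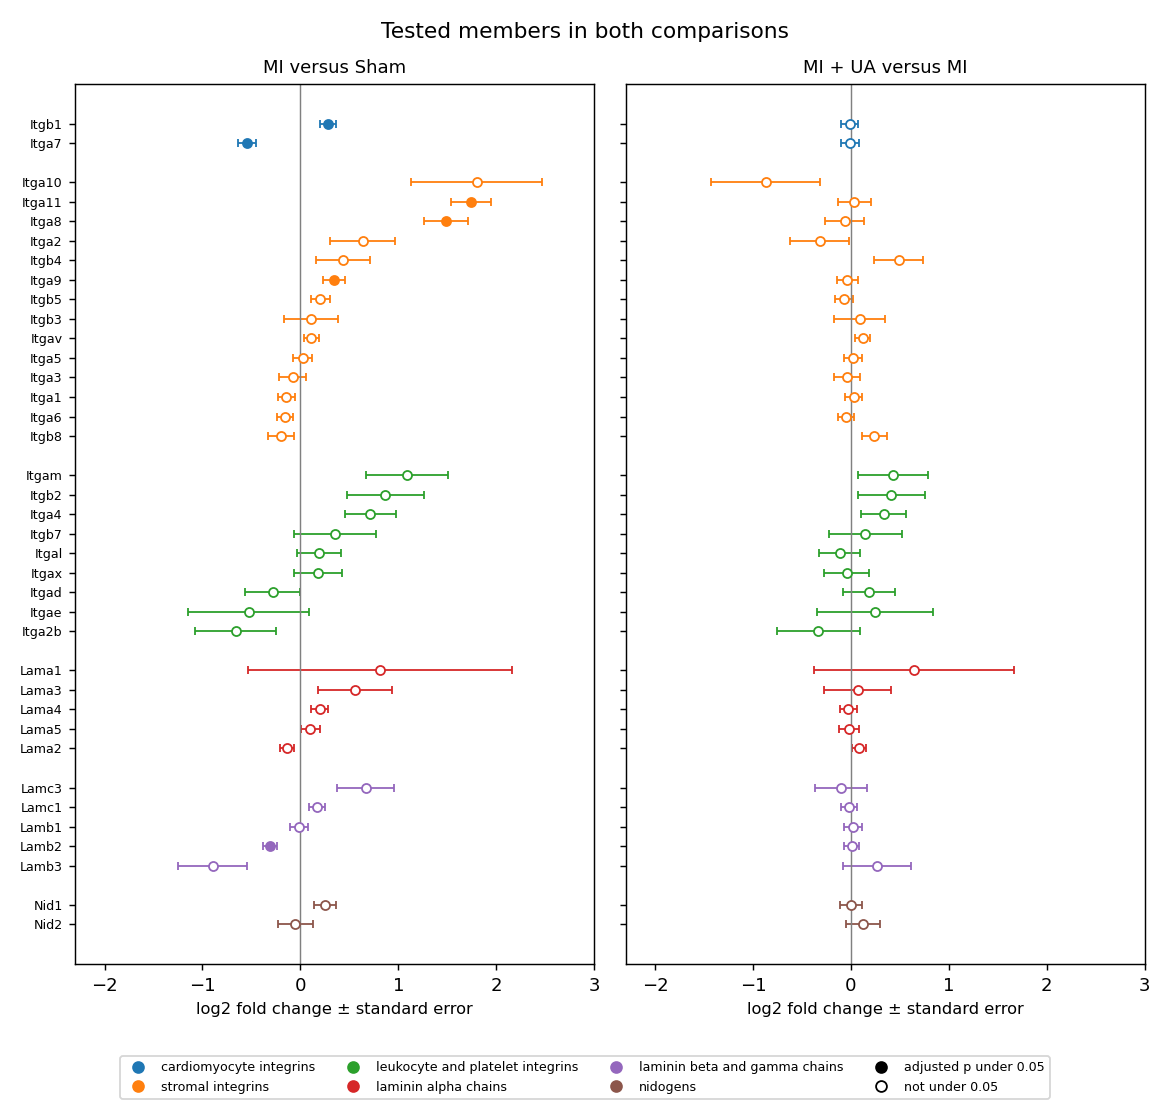
Log2 fold change with its standard error for 37 of the 38 tested members, in MI versus Sham on the left and MI + UA versus MI on the right, grouped by class, with filled points for members that passed. On the left 6 points are filled, from Itga11 at 1.74 to Itga7 at -0.55, and on the right none is.

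Among the collagen-binding chains, Itga11 (ENSRNOG00000006723), which pairs with beta 1 and is best known from fibroblasts and myofibroblasts, had the largest fold change of the 6 members that passed. It was at 2.63, 2.16, 2.36 and 2.62 CPM in the Sham rats, at 8.55, 6.27, 9.76 and 8.07 CPM in the MI rats and at 9.03, 9.12, 9.88 and 6.19 CPM in the MI + UA rats. Every infarcted rat was above every Sham rat, and the lowest of the infarcted rats were rat 66 of MI + UA and rat 57 of MI. The group means were 8.16 ± 1.45 CPM for MI and 2.44 ± 0.226 CPM for Sham (each ± SD, n = 4). Itga11 thus rose 3.34-fold (log2 fold change 1.74, SE 0.21, adjusted p = 1.39e-05 by edgeR). Itga1, the collagen receptor of smooth muscle and other stromal cells, was at -0.14 (SE 0.086, adjusted p = 0.337 by edgeR) on the log2 scale. For Itga2, best known from platelets and epithelia, the value was 0.64 (SE 0.33, adjusted p = 0.257 by edgeR), with overlapping groups. Itga10, a chain best known from cartilage, had 6 counts in the 4 Sham libraries together and from 3 to 20 in the MI libraries, with 20 in rat 36, and did not pass (adjusted p = 0.0946 by edgeR). Among the 4 collagen-binding alpha chains, Itga11 alone passed the test.

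Of the chains that bind fibronectin, vitronectin and other ligands through an RGD sequence, Itga8 (ENSRNOG00000016538) rose. This chain pairs with beta 1, binds nephronectin, and is known from smooth muscle and myofibroblast-like cells. It was at 4.89, 7.22, 5.89 and 6.56 CPM in the Sham rats, at 17.2, 10.3, 19.7 and 20.5 CPM in the MI rats and at 17.1, 20.0, 19.8 and 10.1 CPM in the MI + UA rats. No infarcted rat was as low as a Sham rat, and again rats 57 and 66 were the lowest of their groups. Of 7 smooth muscle and pericyte markers 4 rose, and the part of these cells in the level of Itga8 was not tested. Itga8 rose 2.80-fold (log2 fold change 1.49, SE 0.23, adjusted p = 0.000203 by edgeR). Itgav, a chain of receptors that activate latent TGF-beta, stood at 0.11 on the log2 scale (SE 0.077), the fibronectin receptor chain Itga5 at 0.022 (SE 0.096), and the beta chains that join Itgav, Itgb3, Itgb5 and Itgb8, at 0.11, 0.20 and -0.20. None of these 5 passed, and the smallest adjusted p by edgeR was 0.194, for Itgb5.

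Itga9 (ENSRNOG00000043167), the beta 1 partner that binds tenascin-C and osteopontin, was at 53.2, 48.2, 55.6 and 65.3 CPM in the Sham rats, at 73.3, 78.9, 73.6 and 56.9 CPM in the MI rats and at 77.1, 61.1, 67.5 and 68.3 CPM in the MI + UA rats. The MI and Sham rats overlapped, since MI rat 89 lay below Sham rat 38. It passed by little (log2 fold change 0.34, SE 0.11, adjusted p = 0.0499 by edgeR). It passed in 4 of the 12 fits that each left out 1 rat, and did not without Sham rat 12, 17 or 32, MI rat 36, 57 or 61, or MI + UA rat 64 or 66 (largest adjusted p by edgeR = 0.159).

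The cardiomyocyte pair moved in opposite directions. Itga7 (ENSRNOG00000007905), the laminin-binding chain of striated muscle, was at 112, 111, 127 and 129 CPM in the Sham rats, at 88.6, 76.2, 76.5 and 85.4 CPM in the MI rats and at 90.7, 70.5, 78.4 and 84.7 CPM in the MI + UA rats. The lowest Sham rat, at 111 CPM, was above the highest infarcted rat, at 90.7 CPM. Group means were 81.7 ± 6.29 CPM for MI and 119.6 ± 9.51 CPM for Sham (each ± SD, n = 4), so Itga7 fell (log2 fold change -0.55, SE 0.091, adjusted p = 0.000461 by edgeR). Itgb1 (ENSRNOG00000010966), the beta 1 chain, was at 167, 208, 191 and 210.0 CPM in the Sham rats, at 229, 242, 252 and 222 CPM in the MI rats and at 251, 240.4, 228 and 216 CPM in the MI + UA rats. All 8 infarcted rats were above the highest Sham rat, at 210.0 CPM. With means of 236 ± 13.4 CPM for MI and 194 ± 19.7 CPM for Sham (each ± SD, n = 4), Itgb1 rose (log2 fold change 0.28, SE 0.085, adjusted p = 0.0345 by edgeR). In 12 fits that each left out 1 rat, Itgb1 did not pass without Sham rat 12 or 32 or MI rat 57 or 61, with adjusted p-values by edgeR of 0.111, 0.0869, 0.0629 and 0.110, and passed in the other 8. Itga7 passed in all 12. It moved with the 7 cardiomyocyte markers, whose log2 fold changes ran from -1.08 for Myh6 to -0.37 for Tnnt2. The part of these cells in the level of Itga7 was not tested. The summed level of these markers was 43996 to 49999.8 CPM in Sham and 30520.1 to 36218 CPM in MI. In MI + UA it was 35888, 32511, 32176 and 43133 CPM, so rat 66 was above the other infarcted rats and just below the lowest Sham rat, while its Itga7 lay among the other MI + UA rats. The count table does not separate splice forms, so the muscle form of beta 1 was not told apart from the common form.

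The other laminin-binding alpha chains, Itga6 of endothelium and Itga3 of epithelium and vessels, stood at -0.16 (SE 0.081, adjusted p = 0.247 by edgeR) and -0.079 (SE 0.14, adjusted p = 0.793 by edgeR) on the log2 scale, and both overlapped between MI and Sham.

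**Figure D2:**
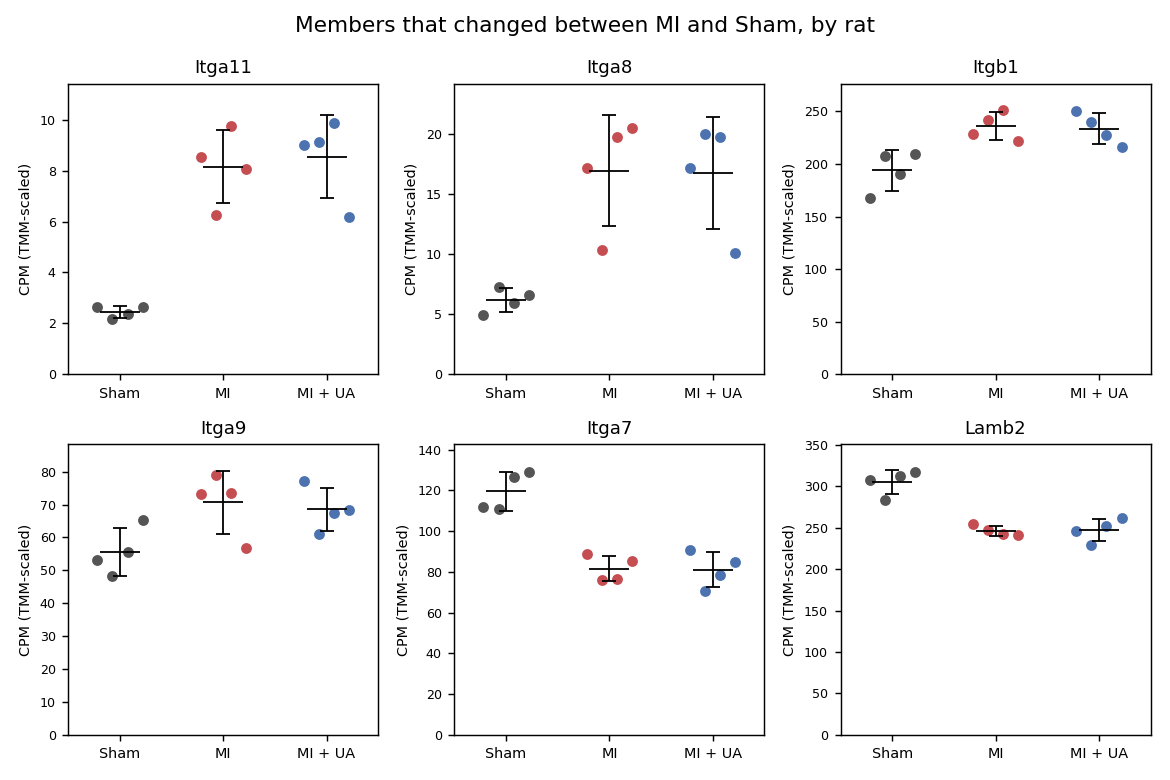
TMM-scaled CPM of the 6 members that passed in MI versus Sham, with 1 point per rat in order of rat number and bars for the mean and SD of each group of 4. For Itga11, Itga8 and Itgb1 all infarcted rats lie above the Sham rats, for Itga7 and Lamb2 they lie below, and for Itga9 the groups overlap.

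The sequence just before the RefSeq start is shown for Itga11, Itga8 and Itgb1, the 3 members that passed as higher in MI than in Sham and whose MI and Sham rats did not overlap. They are the 250 bases before the start of Itga11 (chr8:72041182-72041431, forward strand), Itga8 (chr17:80410634-80410883, reverse strand) and Itgb1 (chr19:73602027-73602276, forward strand), from RefSeq on build GRCr8, which is not the build of the counts, written 5′ to 3′ on the gene's strand. Capitals mark matches on either strand to 5 motifs. The letters TGANTCA stood for sites of the AP-1 type, bound by Fos and Jun proteins. Sites of the TEAD type, which answer to stretch signals, were searched as CATTCC with no mismatch. Those of the ETS type, a family of many factors, were searched as GAGGAA without flanking bases. The GC box, where Sp1 and related factors bind, was searched as GGGCGG in the same way. The TATA box, found near the start of some genes, was searched as TATAAA in the same windows.
Itga11: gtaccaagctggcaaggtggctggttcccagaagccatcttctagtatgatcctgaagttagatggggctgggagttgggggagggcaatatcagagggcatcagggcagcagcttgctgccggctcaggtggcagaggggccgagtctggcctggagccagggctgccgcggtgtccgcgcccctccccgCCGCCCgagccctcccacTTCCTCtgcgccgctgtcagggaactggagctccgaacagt
Itga8: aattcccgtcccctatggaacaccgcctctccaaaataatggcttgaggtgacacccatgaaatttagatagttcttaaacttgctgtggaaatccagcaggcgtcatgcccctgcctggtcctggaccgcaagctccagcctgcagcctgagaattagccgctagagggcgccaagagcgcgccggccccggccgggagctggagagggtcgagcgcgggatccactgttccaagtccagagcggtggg
Itgb1: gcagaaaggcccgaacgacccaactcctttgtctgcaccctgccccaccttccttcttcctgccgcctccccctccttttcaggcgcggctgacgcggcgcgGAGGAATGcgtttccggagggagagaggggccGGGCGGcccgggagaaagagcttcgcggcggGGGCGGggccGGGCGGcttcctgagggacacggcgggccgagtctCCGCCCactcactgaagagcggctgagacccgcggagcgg
In Itga11 the GC box stood at -59 and the ETS type match at -41 from the start, Itga8 held none of the 5, and Itgb1 held 4 GC boxes, an ETS type match and a TEAD type match, the last 2 overlapping. Of the 33469 promoter windows of this length, 6.34% held the AP-1 type letters, 12.1% the TEAD type, 23.3% the ETS type, 30.5% the GC box and 12.9% the TATA box. Of the members, 29 matched a RefSeq promoter by symbol, and of these 2 held the AP-1 type letters, 6 the TEAD type, 12 the ETS type, 15 the GC box and 2 the TATA box, or 6.9%, 20.7%, 41.4%, 51.7% and 6.9%. Over all windows the median GC content was 51.2%. It was 65.2% in the window of Itga11, 59.6% in that of Itga8 and 71.2% in that of Itgb1, and most of the 29 member windows were above that median. The part of GC content in these shares was not tested. A match shows only that the letters are there.

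Since a ratio of genes within a library hardly depends on how libraries are scaled, 9 ratios of related members were also compared, each in MI versus Sham and in MI + UA versus MI. The log2 ratio of Itga7 to Itgb1 averaged -0.69 ± 0.15 for Sham and -1.53 ± 0.19 for MI (each ± SD, n = 4), a difference of -0.84. Against Itga6, the log2 ratio of Itga7 differed by -0.39, and that of Itga11 to Itga1 by 1.83. The ratio of the muscle laminin chain Lama2 to the vascular chain Lama4 differed by -0.33 and that of Lamb2 to Lamb1 by -0.29. In each of these 5 ratios all 16 pairs of an MI and a Sham rat pointed the same way (p = 0.0286 by a two-sided exact permutation, the smallest that 4 rats against 4 allow, and 0.103 after Benjamini-Hochberg adjustment over 18 tests). The differences were 0.082 for Itgav to Itga5, 0.14 for Itgam to Itgb2, -0.093 for Lama5 to Lama4 and -0.28 for Nid2 to Nid1, with overlapping rats and exact permutation p-values from 0.257 to 0.629. No ratio had an adjusted p-value under 0.05, which with 18 tests of 4 rats against 4 would need most of them at the smallest p.

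**Figure D3:**
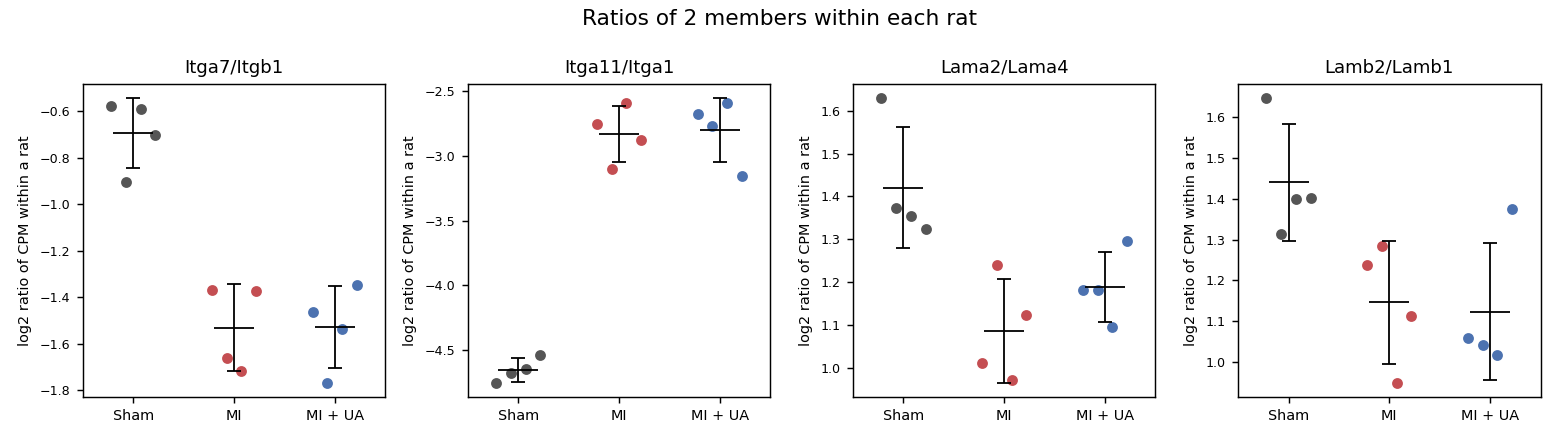
Log2 ratio of the CPM of 2 members within each rat, for Itga7 to Itgb1, Itga11 to Itga1, Lama2 to Lama4 and Lamb2 to Lamb1, with 1 point per rat and bars for the mean and SD of each group of 4. In each panel the MI rats do not overlap the Sham rats, and the MI + UA rats overlap the MI rats, with rat 66 inside the Sham range for Lamb2 to Lamb1.

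In the basement membrane, Lamb2 (ENSRNOG00000047768), the beta 2 chain of muscle and vessel laminins, fell. It was at 308, 283, 312 and 317 CPM in the Sham rats, at 254, 247, 242 and 241 CPM in the MI rats and at 245, 229.5, 252 and 262 CPM in the MI + UA rats. No infarcted rat reached the lowest Sham rat, at 283 CPM (log2 fold change -0.31, SE 0.073, adjusted p = 0.00730 by edgeR), and Lamb2 passed in all 12 fits that left out a rat. Lama2 (ENSRNOG00000011134), the main alpha chain around cardiomyocytes, was at 301, 302, 306 and 309 CPM in the Sham rats, at 283, 275, 271 and 278 CPM in the MI rats and at 291, 301, 278 and 302 CPM in the MI + UA rats. The MI rats were all below the Sham rats, while rats 58 and 66 of MI + UA lay within the Sham range. It did not pass (log2 fold change -0.14, SE 0.068, adjusted p = 0.228 by edgeR), and DESeq2 gave -0.14 with an adjusted p of 0.0484. Lama4 (ENSRNOG00000000599), the alpha chain of vessel walls, was at 97.1, 117, 119.5 and 123 CPM in the Sham rats, at 140.3, 116, 138 and 127 CPM in the MI rats and at 128, 132, 130.1 and 123 CPM in the MI + UA rats, with overlapping groups (log2 fold change 0.20, SE 0.087, adjusted p = 0.167 by edgeR).

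Lamb1 (ENSRNOG00000005678), the other broadly used beta chain, was at 98.4, 114, 118 and 119.9 CPM in the Sham rats, at 108, 101, 125 and 112 CPM in the MI rats and at 118, 111, 124 and 101 CPM in the MI + UA rats, and the 3 groups overlapped (log2 fold change -0.013, SE 0.091, adjusted p = 0.958 by edgeR). Lamc1 (ENSRNOG00000002680), the gamma chain of nearly all of these trimers, was at 299.8, 349.9, 336 and 328 CPM in the Sham rats, at 342, 393, 401 and 341 CPM in the MI rats and at 379.5, 370.0, 364 and 341 CPM in the MI + UA rats. It overlapped between the groups too (log2 fold change 0.17, SE 0.080, adjusted p = 0.205 by edgeR). Of the chains known mainly from epithelia, Lamb3 was at -0.90 (SE 0.35, adjusted p = 0.111 by edgeR) and Lama3 at 0.56 on the log2 scale. Lama5 and Lamc3, which are set apart from these, had log2 fold changes of 0.10 and 0.67. None of these chains passed. Lama1, the embryonic alpha chain, had 10 counts in all.

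The nidogens did not pass the test. Nid1 (ENSRNOG00000002461) was at 203, 234, 209.7 and 227 CPM in the Sham rats, at 225, 246, 268 and 301 CPM in the MI rats and at 281, 301, 264 and 198 CPM in the MI + UA rats. Rat 89 of MI and rat 58 of MI + UA were the highest, rat 66 of MI + UA was the lowest of all, and MI overlapped Sham (log2 fold change 0.25, SE 0.11, adjusted p = 0.174 by edgeR). Nid2 (ENSRNOG00000000341) was at 24.1, 18.6, 16.0 and 22.9 CPM in the Sham rats, at 21.5, 21.0, 16.0 and 20.6 CPM in the MI rats and at 17.9, 32.5, 20.8 and 16.6 CPM in the MI + UA rats. It was highest in rat 58 of MI + UA, the groups overlapped, and it stood at -0.053 (SE 0.18, adjusted p = 0.905 by edgeR) on the log2 scale in MI.

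Of the 9 leukocyte and platelet integrins, 0 passed between MI and Sham and 3, Itgam, Itgb2 and Itga4, had an unadjusted p-value under 0.05 by edgeR, against 23.9% of all genes. In a fit of the MI and Sham rats alone these 3 passed (adjusted p by edgeR = 0.0217, 0.0204 and 0.0210). In the fit of all 3 groups, Itgam and Itgb2 also passed once MI + UA rat 64 was left out (adjusted p by edgeR = 0.0253 and 0.0306), and Itga4 once MI + UA rat 58 was left out (adjusted p by edgeR = 0.0171). By DESeq2 over all rats, 0 of the 9 passed. None of 8 T and B cell, 3 neutrophil and 2 platelet markers tested passed by edgeR. Their levels were low. In the Sham and MI rats the T and B cell markers summed to 3.18 to 6.75 CPM, the neutrophil markers to 0.950 to 2.67 CPM and the platelet markers to 0.238 to 1.22 CPM. At this depth the lack of a pass does not show that these cells were unchanged. The median log2 fold change of the 9 was 0.19, against 0.84 for the 9 macrophage and pan-leukocyte markers, whose summed level was 131 to 149.7 CPM in Sham and 228 to 279 CPM in MI. Itgam (ENSRNOG00000019728), which encodes CD11b of macrophages and neutrophils, was at 3.14, 2.60, 3.37 and 3.22 CPM in the Sham rats, at 4.83, 5.49, 4.15 and 11.4 CPM in the MI rats and at 4.97, 8.73, 18.8 and 4.90 CPM in the MI + UA rats. All infarcted rats were above all Sham rats, with rat 89 the highest of MI and rat 64 the highest of MI + UA. On the log2 scale it stood at 1.09 (SE 0.42, adjusted p = 0.104 by edgeR), and at 0.63 without rat 89 (adjusted p by edgeR = 0.408), while with no filter on low counts it passed (adjusted p by edgeR = 0.0231). Itgb2 (ENSRNOG00000001224), the beta chain it shares with the other CD11 chains, was at 4.52, 3.75, 4.88 and 5.84 CPM in the Sham rats, at 6.21, 6.12, 9.86 and 12.3 CPM in the MI rats and at 5.37, 10.7, 25.7 and 7.31 CPM in the MI + UA rats. The MI rats did not overlap the Sham rats, rat 64 was again the highest of all, and it stood at 0.87 (SE 0.39, adjusted p = 0.173 by edgeR) on the log2 scale. Itga4, which binds VCAM-1, stood at 0.72 (SE 0.26, adjusted p = 0.0865 by edgeR), and no MI rat overlapped a Sham rat. The other CD11 genes stood at 0.18 for Itgax (CD11c), 0.19 for Itgal (CD11a) and -0.28 for Itgad, each with overlapping groups. The SE was 0.42 for Itgam and 0.39 for Itgb2, but 0.26 for Itga4, 0.22 for Itgal and 0.24 for Itgax, against 0.091 for Itga7. An SE holds counting noise as well as the spread between rats. Itgam had 752 counts in all and Itga7 had 11200, so these SEs do not compare the spread between rats alone. Itgb7 of intestinal lymphocytes, at 0.36, and the platelet chain Itga2b, at -0.66, rested on 154 and 167 counts in all and did not pass. Itgae, the CD103 chain of resident lymphocytes, had 77 counts in all.

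**Figure D4:**
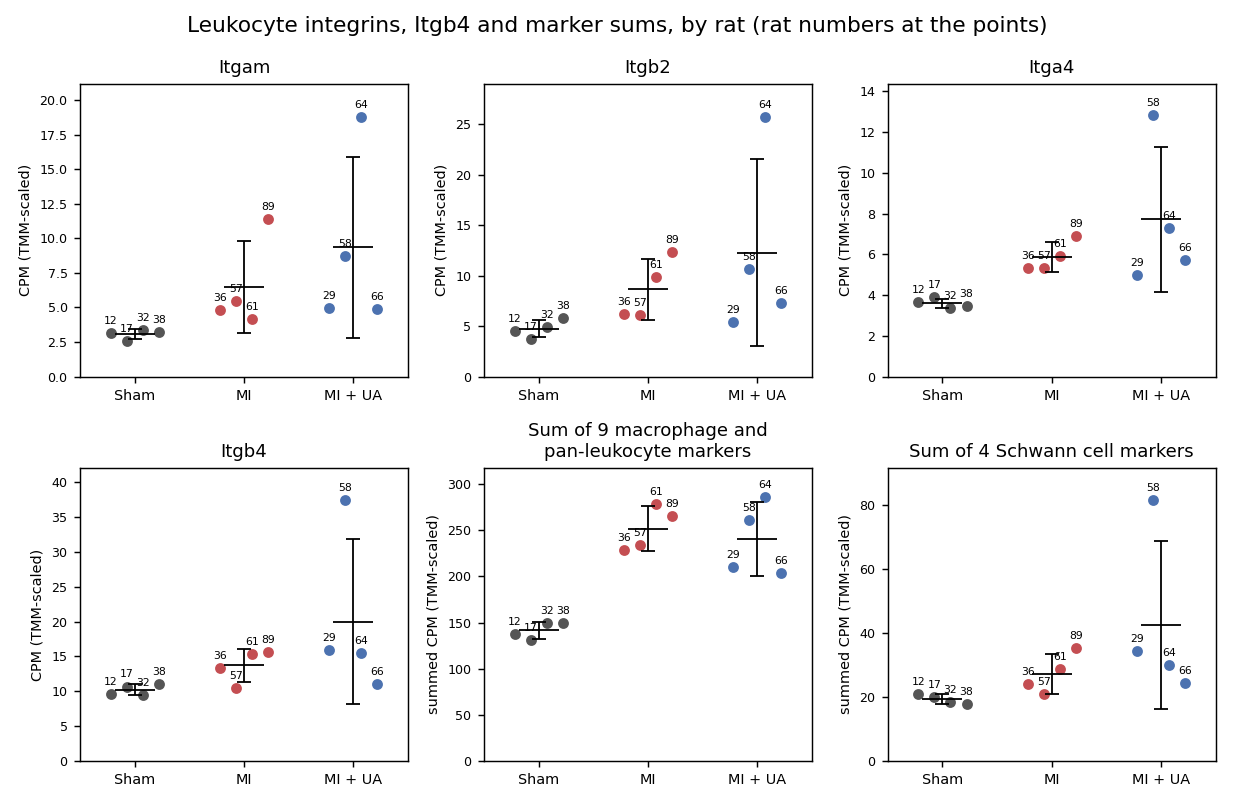
TMM-scaled CPM of Itgam, Itgb2, Itga4 and Itgb4 and the summed CPM of 9 macrophage and pan-leukocyte markers and of 4 Schwann cell markers, with rat numbers at the points and bars for the mean and SD of each group of 4. Rat 64 is the highest for Itgam and Itgb2, rat 58 for Itga4, Itgb4 and the Schwann cell markers.

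The comparison of MI + UA with MI asks what UA did in infarcted hearts, and no member passed in it. By edgeR 0 of 38 members passed, as did 0% of all genes, and 0 had an unadjusted p-value under 0.05, against 3.79% of all genes. DESeq2 gave 0 members as well, as did edgeR with rat 66 left out or counted in MI. The rats of the groups did not overlap at 0 members, against 2.34% of all genes. Log2 fold changes were above 0 for 22 of the 38 members, against 51% of all genes, with a median of 0.023. Of the well-covered members, the 95% intervals ran from -0.20 to 0.18 for Itga7, from -0.19 to 0.16 for Itgb1, from -0.15 to 0.16 for Lamb2 and from -0.059 to 0.22 for Lama2, on the log2 scale. For Itga11 the interval was -0.32 to 0.39 and for Itga8 -0.48 to 0.35, while the change of each between MI and Sham was 1.74 and 1.49. Among the leukocyte chains, Itgam and Itgb2 were less certain. Their intervals were -0.31 to 1.17 and -0.30 to 1.13, which reach beyond 1 on the log2 scale. The smallest unadjusted p-values were those of Itgb4, with a log2 fold change of 0.49 (unadjusted p by edgeR = 0.0656), and Itgb8, with 0.24 (unadjusted p by edgeR = 0.0772). The value of Itgb4 rested on rat 58, being 0.021 without it, and it was 0.71 without rat 66.

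The MI + UA rats were also compared with the same Sham rats. Here 8 of 38 members passed, or 21.1%, against 9.44% of all genes. They comprise 6 members that rose, against 5.16% of all genes, and 2 that fell, against 4.27%. Of the 8, 4 had also passed in MI versus Sham. Their log2 fold changes in the 2 comparisons, which share the Sham rats, were 1.74 and 1.77 for Itga11, 1.49 and 1.42 for Itga8, -0.55 and -0.56 for Itga7, and -0.31 and -0.30 for Lamb2. The other 4 were Itgam, at 1.52 (SE 0.41, adjusted p = 0.0208 by edgeR), Itgb2, at 1.28 (SE 0.38, adjusted p = 0.0382 by edgeR), Itga4, at 1.05 (SE 0.26, adjusted p = 0.0114 by edgeR), and Itgb4, at 0.92 (SE 0.27, adjusted p = 0.0319 by edgeR). Itgb1 stood at 0.27 (SE 0.085, adjusted p = 0.0501 by edgeR) here, with all MI + UA rats above all Sham rats, and passed by DESeq2 (adjusted p = 0.0238), and Itga9 did not pass (adjusted p = 0.0926 by edgeR), but did without Sham rat 38 (adjusted p by edgeR = 0.0466). With rat 66 counted in MI, Itgb1 passed at 0.31 (adjusted p by edgeR = 0.0342) and Nid1 at 0.37 (adjusted p by edgeR = 0.0399). With rat 66 left out they passed too (adjusted p by edgeR = 0.0286 and 0.0151), whereas with rat 66 in MI + UA, Nid1 stood at 0.25 (SE 0.11, adjusted p = 0.181 by edgeR). For the genes that passed in only 1 of these comparisons, the direct comparison of MI + UA with MI is the test of the difference, and none passed it.

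Those 4 genes rested on single rats to different degrees. Without rat 64, Itgam was at 0.96 (adjusted p by edgeR = 0.0861) and Itgb2 at 0.66 (adjusted p by edgeR = 0.166) on the log2 scale. Rat 64 also had the highest summed macrophage and pan-leukocyte markers of its group, at 286 CPM against 211, 262 and 204 CPM in rats 29, 58 and 66. In MI the order differed, since the highest sum, 279 CPM, was in rat 61, which had the lowest Itgam of its group, 4.15 CPM. Rat 89, with the most Itgam of the MI rats, had a sum of 266 CPM. The part of these cells was not tested. Itgb2 did not pass without rat 58 either (adjusted p by edgeR = 0.0603). Leaving out any single Sham rat also put the adjusted p-values of Itgam, Itgb2 and Itgb4 above 0.05, between 0.0506 and 0.106. Itga4, the alpha 4 chain of lymphocytes and monocytes that binds VCAM-1, was at 3.64, 3.90, 3.37 and 3.46 CPM in the Sham rats, at 5.34, 5.33, 5.92 and 6.93 CPM in the MI rats and at 4.97, 12.8, 7.31 and 5.74 CPM in the MI + UA rats and was chosen for listing by rat after its values were seen, as was Itgb4. Its infarcted rats were all above the Sham rats, and it passed in all 12 fits that left out a rat. Itgb4, which pairs with alpha 6 and is known from epithelia and from Schwann cells, was at 9.66, 10.7, 9.43 and 11.1 CPM in the Sham rats, at 13.4, 10.5, 15.4 and 15.6 CPM in the MI rats and at 15.9, 37.5, 15.6 and 11.0 CPM in the MI + UA rats. Rat 58 held more than any other rat, and without it Itgb4 was at 0.46 (adjusted p by edgeR = 0.101). The same rat had the highest summed level of the 4 Schwann cell markers, 81.4 CPM, while the other MI + UA rats were between 24.2 and 34.4 CPM and the Sham rats between 17.6 and 21.0 CPM. Of the epithelial and mesothelial markers, those tested, Upk3b, Msln and Wt1, summed to 13.5, 10.0, 11.6 and 12.2 CPM in the MI + UA rats. Rat 58 was the lowest, and the Sham rats were at 9.09 to 16.1 CPM. The keratins Krt8, Krt18 and Krt19 were not tested, so this sum holds no keratin and does not show the level of epithelial cells. The part of either cell type in the level of Itgb4 was not tested.

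Within the infarcted groups, the rats with the least Itga11 and Itga8, rat 57 of MI and rat 66 of MI + UA, were also those with the lowest summed fibroblast markers. That sum was 2174 CPM in rat 57 against 2791, 2851 and 3537 CPM in the other MI rats. It was 2192 CPM in rat 66 against 2731, 3645 and 3392 CPM in the other MI + UA rats, and it was 1125 to 1433 CPM in Sham. Rats 57 and 66 were the lowest of their groups in other sums too. Their smooth muscle and pericyte markers summed to 515 and 514 CPM, against 517 to 539.7 CPM in Sham. Their Schwann cell markers summed to 21.0 and 24.2 CPM. The part of fibroblast number, or of the number of any other cell type, in the level of these chains was not tested.

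The partners of these receptors were read from 3 further lists. Of 24 cytoplasmic proteins that couple integrins to actin and signalling, 6 rose and 1 fell between MI and Sham, or 29.2% in all, while 11.4% of all genes passed, 5.82% higher and 5.53% lower. The median change was 0.041 on the log2 scale, against 0.026 over all genes tested. The largest rises were those of Parvg, a parvin of blood cells, at 1.13 (adjusted p = 0.00968 by edgeR), the tensin Tns3 at 0.69 (adjusted p = 0.000598 by edgeR), the actin crosslinker Flna at 0.64 (adjusted p = 0.00374 by edgeR) and the kinase Src at 0.54 (adjusted p = 0.0201 by edgeR), and Tns1 fell, at -0.30 (adjusted p = 0.0157 by edgeR). Of 9 tested basement membrane or laminin-binding genes of 12 listed, 3 rose, namely Col4a6 at 1.29 (adjusted p = 0.0123 by edgeR), Col18a1 at 0.75 (adjusted p = 0.0120 by edgeR) and Col15a1 at 0.35 (adjusted p = 0.0150 by edgeR), and 0 fell. That is 33.3% of the 9, against the same 11.4% of all genes that passed and 5.82% that rose, and their median was 0.24. Among 12 tested genes of 16 listed as other ligands, 6 rose and 0 fell, or 50.0%, beside the 11.4% of all genes that passed and 5.82% that rose. Their median log2 fold change was 0.99, against 0.026 over all genes. The lists were not tested against all genes. The largest were Spp1 (osteopontin, bound by alpha v and alpha 9 chains) at 3.41 (adjusted p = 0.00115 by edgeR), Postn at 2.65 (adjusted p = 0.000160 by edgeR), Fn1 (fibronectin) at 2.09 (adjusted p = 0.000405 by edgeR) and Icam1, the ligand of the beta 2 chains, at 1.03 (adjusted p = 0.000561 by edgeR). Vcam1, the ligand of alpha 4, which was named outside the rule after its value was seen, was at 0.95 (adjusted p = 0.0256 by edgeR). Between MI + UA and MI, 0 of the 24, 9 and 12 genes tested in these lists passed by edgeR or had an unadjusted p-value under 0.05 in that test.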

How the data were processed

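The authors depleted ribosomal RNA (the labels name polyA RNA), sequenced strand-specific libraries from fixed heart sections, aligned reads with STAR 2.6.1c to mRatBN7.2 (Ensembl annotation) and deposited raw counts per gene from HTSeq, whose strand setting is not given in the sources used here. A further MI + UA library, excluded by the authors, was not analysed here. Tool names come from the submitters' processing notes. Genes with at least 10 counts over the 12 libraries were tested with edgeR 4.0.16 (R 4.3.3, limma 3.58.1), with TMM scaling and 1 quasi-likelihood fit over the 3 groups, and p-values were adjusted by Benjamini-Hochberg over all genes. DESeq2 1.42.0 and other settings served as alternatives. The members and lists were chosen with earlier results of these data known. Values by rat were given for members that passed in MI versus Sham, for 11 members taken as representatives of their class and, where named as such, for genes chosen after their values were seen. From each list of partners and ligands up to 4 rises and 4 falls were named. Ratios used a prior count of 1 and the two-sided exact permutation test. Intervals are 95%. The labels give no batch. The values of 1 tested member are not reported here. Genes of the lists that have no row, among them Pln, Hspg2 and Flt1, were not analysed here.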

Additional observations from a re-analysis of the deposited data

Results flagged for a closer look

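In Nid2, rat 61 was the lowest of the MI rats. Its gap to the next rat was 0.858 of the group's range, above Dixon's 95% critical value for 4 samples. Among 48 groups examined (16 members in 3 groups) this was the only one above that value, while chance gives about 1 in 20, or 2.4.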

How the results depend on the processing

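No paired analysis was possible because each rat belongs to a single group and numbers are not shared across groups. Itga11, Itga8, Itga7 and Lamb2 passed against Sham in both infarcted groups in every fit that left out 1 rat. The number of members that passed ranged from 4 to 7 for MI versus Sham and from 5 to 10 for MI + UA versus Sham, with 5 where Sham rat 12, 17 or 32 was left out and 10 without rat 66. Over all genes it ranged from 0 to 1 for MI + UA versus MI (1 without MI rat 36), and without the filter on low counts it was 3. Itga9 in MI versus Sham did not pass with DESeq2 size factors, TMM without mitochondrial genes or a fit of the 2 groups alone, with adjusted p-values by edgeR of 0.0523, 0.0556 and 0.0583. Moving rat 66 to the MI group turned the log2 fold changes for MI + UA versus MI to 0.048 for Itgb1, 0.27 for Itga8, 0.012 for Lama4, -0.043 for Lamb2 and 0.031 for Lamc1, and the ratios to -0.062 for Itga7 to Itga6 and -0.095 for Itga7 to Itgb1. None of these passed, and the cause was not tested. In MI + UA versus Sham the same move made Itgb1 and Nid1 pass. Values near 0 changed sign for Nid1 in MI + UA versus MI, at -0.00031 with filterByExpr and -0.00051 in a fit of the 2 groups, and for Lamb1 in MI + UA versus Sham, at -0.00023 with TMM without mitochondrial genes. The MI versus Sham ratio of Itgav to Itga5 ranged from -0.0036 to 0.14 when 1 rat was left out at a time. Leaving out 1 rat at a time, the log2 fold changes that changed sign ranged in MI versus Sham from -0.073 to 0.028 for Lamb1 and -0.15 to 0.035 for Nid2. In MI + UA versus MI they ranged from -0.071 to 0.051 for Itga7, -0.053 to 0.022 for Itgb1, -0.22 to 0.13 for Itga8, -0.13 to 0.017 for Itga9, -0.056 to 0.18 for Itga11, -0.0056 to 0.51 for Itga4, -0.13 to 0.89 for Itgam, -0.21 to 0.69 for Itgb2, -0.077 to 0.0097 for Lama4, -0.020 to 0.084 for Lamb1, -0.024 to 0.039 for Lamb2, -0.058 to 0.020 for Lamc1, -0.072 to 0.12 for Nid1 and -0.12 to 0.24 for Nid2. In MI + UA versus Sham they ranged from -0.050 to 0.064 for Lamb1 and -0.17 to 0.19 for Nid2. Ratios that changed sign in MI + UA versus MI ranged from -0.042 to 0.098 for Itga7 to Itga6, -0.061 to 0.081 for Itga7 to Itgb1, -0.058 to 0.15 for Itga11 to Itga1, -0.022 to 0.19 for Itgav to Itga5, -0.15 to 0.23 for Itgam to Itgb2, -0.077 to 0.082 for Lama5 to Lama4, -0.11 to 0.024 for Lamb2 to Lamb1 and -0.019 to 0.23 for Nid2 to Nid1. Members under 100 counts are limited by depth, and Itgam and Itgb2, at a few CPM in most rats, by single rats. The limit on Itgb6 is its 6 counts.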
